A study of Mus musculus with 4 samples.

Results

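The Rag GTPases (Rraga, Rragb, Rragc, Rragd), the folliculin complex (Flcn, Fnip1, Fnip2) and the MiT/TFE transcription factors (Tfeb, Tfe3, Mitf) are 10 genes of the lysosomal nutrient-sensing pathway. They were taken by gene symbol from a table of 56953 genes, all 10 were found, and 9 passed the filter on low counts. The choice was made with the data known: Rragd was chosen by its fold change between deletion and control livers, so its values are given as a description and carry no test. The other members came in as relatives and partners of Rragd.

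The samples are livers of mice aged 2 months on a normal diet, all with loxP-flanked alleles of Ubc13, the protein encoded by Ube2n, an enzyme that builds ubiquitin chains. The control group, labelled wild type and negative for the albumin-driven Cre, holds 2 samples. The deletion group, labelled positive for it, also holds 2. The albumin promoter drives Cre mainly in hepatocytes, so most other liver cells keep the gene. The labels name liver, although the library protocol mentions primary hepatocytes, and markers of stellate and endothelial cells were present in all libraries. Whether replicates are separate animals is not stated, and p-values measure only the spread between these samples.

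Rag GTPases work as obligate pairs, RagA or RagB with RagC or RagD, and sit on the lysosome. When amino acids are present they bring the growth kinase complex mTORC1 to the lysosomal surface. Folliculin, with its partner FNIP1 or FNIP2, activates the RagC or RagD side, which lets mTORC1 phosphorylate TFEB and TFE3 and keeps them in the cytoplasm. When released into the nucleus, MiT/TFE factors switch on genes of lysosomes and autophagy, and Rragd is itself one of their known targets.

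MiT/TFE factors bind E-boxes with the core CACGTG, so the upstream sequence of Rragd is shown beside that of its close relative Rragc, with short stretches of the other members that hold this core. Sequences are from RefSeq on GRCm38.p6, plus strand, written 5′ to 3′ and ending upstream of the annotated start. Capitals mark CACGTG. All 10 members had at least 1 promoter window in the table.

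Rragd, chr4:32982748-32982997: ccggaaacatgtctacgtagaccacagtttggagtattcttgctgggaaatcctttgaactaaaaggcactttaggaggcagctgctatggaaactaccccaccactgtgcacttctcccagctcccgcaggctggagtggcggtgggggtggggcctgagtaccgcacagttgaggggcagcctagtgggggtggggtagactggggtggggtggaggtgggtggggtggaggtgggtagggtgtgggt
Rragc, chr4:123917183-123917432: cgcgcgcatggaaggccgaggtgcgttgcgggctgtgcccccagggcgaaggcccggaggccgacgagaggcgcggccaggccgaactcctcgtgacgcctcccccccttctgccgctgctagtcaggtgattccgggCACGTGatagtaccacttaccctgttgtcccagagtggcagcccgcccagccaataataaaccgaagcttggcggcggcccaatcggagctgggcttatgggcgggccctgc
Rragb, chrX:153139808-153139957: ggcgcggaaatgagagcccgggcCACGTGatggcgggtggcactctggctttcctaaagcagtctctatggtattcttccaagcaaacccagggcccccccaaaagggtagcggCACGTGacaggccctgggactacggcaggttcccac
Fnip1, chr11:54438079-54438138: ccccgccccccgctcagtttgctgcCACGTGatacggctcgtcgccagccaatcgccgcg

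On both strands of the 300-base window around each start, CACGTG was found once in Rragc, once in Fnip1 and 3 times in Rragb, and it was not found in Rragd. The printed Rragb stretch ends inside the match that begins at position 248 of its window, so it shows 2 of the 3 in capitals. The share of all 32851 promoter windows with this core was 7.15%. The longer form TCACGTGA, held by 0.974% of all windows and always including the core, and the M-box core TCATGTG, held by 3.77%, were found in none of the 15 windows of the members. These are matches of letters only, and a window without a match says nothing about binding elsewhere in the gene.

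The libraries held 16270424 to 17800138 counts. Levels are given in CPM, the counts of a gene scaled to the size of its library with TMM factors. Ube2n was at 41.3 and 44.9 CPM in the control pair against 5.88 and 5.97 CPM after deletion, a log2 fold change of -2.86 ± 0.16 (SE; edgeR adjusted p = 0.00188). The labels do not say which exons are flanked. The groups also differed in sex-linked RNA. Xist had 9 and 2 counts in the control pair against 9590 and 3896 in deletion replicates 1 and 2, and the summed CPM of 4 Y-linked genes in the deletion libraries was 0% and 61.3% of the control mean. Genotype and sex cannot be told apart here. Deletion replicate 2 held both Xist and Y-linked RNA, and deletion replicate 1 held Xist without Y-linked RNA. Neither deletion library thus matched the controls in sex-linked RNA.

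Rragd, the gene of RagD, went from a trace to the most abundant of the 10 transcripts. It had 2.53 and 1.17 CPM in control replicates 1 and 2 (41 and 17 counts) and 68.7 and 56.9 CPM in deletion replicates 1 and 2 (1251 and 1105 counts). Both deletion libraries lay far above both controls. The means were 1.85 ± 0.963 and 62.8 ± 8.4 CPM (SD, n = 2), and the fitted log2 fold change was 5.07 ± 0.34, a 33.5-fold difference. By that value Rragd ranked 33 of the 14600 genes tested, among the highest 0.226%. The fold was 53.3 without control replicate 1 and 24.8 without control replicate 2. Without deletion replicate 1, the library that lacks Y-linked RNA, it was 30.2. The deletion library that remained also held Xist, so this is not a comparison within 1 sex. In whole liver, a change in the number of cells of a type and a change of RNA per cell cannot be told apart. Rragd (ENSMUSG00000028278) lies at chr4:32983037-33022180 on the plus strand of GRCm38, and the last exon of its longest coding transcript, where 3′ libraries read, spans 33018647 to 33022180. The last 500 bases of its coding transcripts shared no run of 50 bases with a transcript of another gene.

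Rragc, the gene of the other protein that fills the same place in the Rag pair, differed far less. It had 39.8 and 39.8 CPM in the control pair against 49.0 and 43.9 CPM after deletion. The deletion values were higher without overlap, but the log2 fold change of 0.22 ± 0.14 was not called (95% interval -0.13 to 0.57, edgeR adjusted p = 0.406).

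The make-up of the RagC and RagD transcripts differed between the groups accordingly. Rragd held 5.98% (95% Clopper-Pearson interval 4.32 to 8.02) and 2.85% (1.67 to 4.52) of the Rragc plus Rragd counts in control replicates 1 and 2. Its share was 58.4% (56.3 to 60.5) and 56.4% (54.2 to 58.6) in deletion replicates 1 and 2. The intervals cover counting error only. A 3′ library reads a stretch at the end of each transcript, so these counts were compared without dividing by length.

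Rraga, the gene of RagA, the main partner transcript in this liver, did not follow Rragd. It had 42.4 and 47.0 CPM in the control pair against 38.0 and 36.6 CPM after deletion. The deletion values were lower without overlap, and the log2 fold change of -0.26 ± 0.14 was not called (interval -0.61 to 0.09, adjusted p = 0.333). With library sizes alone as scaling it was 0.03, so no direction is given.

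Rragb, the gene of the RagA relative RagB, was close to absent, with 6 and 1 counts in the control pair against 0 and 4 after deletion. It was the member below the filter, and no fold is given because its level lies near the floor of 3 counts in a library. The last 500 bases of Rragb shared a 50-base run with 2 other genes, so even these counts are uncertain.

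Setting both sides of the pair against each other, transcripts of RagC plus RagD were 0.99 and 0.872 times those of RagA plus RagB in the control pair against 3.10 and 2.74 times after deletion. The near balance of the controls was absent from both deletion libraries. With Rragd left out, the ratio of Rragc to Rraga was 0.939 and 0.848 in the control pair against 1.29 and 1.20 after deletion. The groups thus lay closer together without Rragd, the gene chosen for its difference, and these ratios were not tested.

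**Figure D1:**
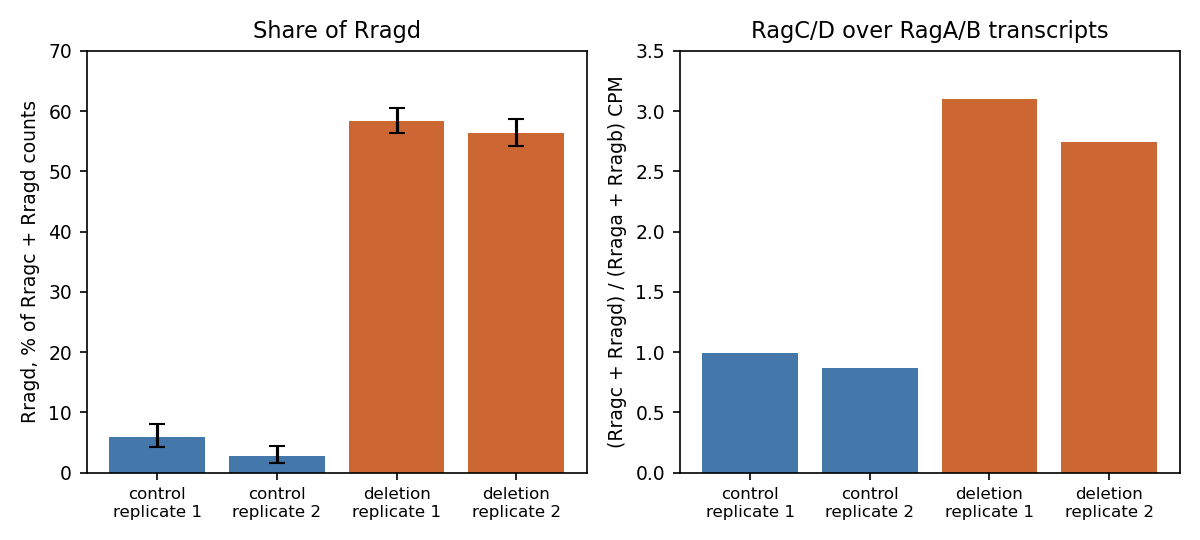
Left, the share of Rragd in the counts of Rragc plus Rragd (percent, bars with exact 95% intervals) in each library. Right, the ratio of summed RagC and RagD to summed RagA and RagB transcripts (CPM over CPM). Control libraries are blue and deletion libraries orange. The share lies between 2.85% and 5.98% in the controls and between 56.4% and 58.4% in the deletion libraries.

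The folliculin complex showed no call. Flcn, the tumour suppressor gene of Birt-Hogg-Dubé syndrome, had 55.3 and 33.2 CPM in the control pair against 28.5 and 40.6 CPM after deletion. The groups overlapped, and the controls lay farther apart from each other than the group means did. Its log2 fold change was -0.36 ± 0.29 (interval -1.06 to 0.35, adjusted p = 0.509), and it was 0.05 without control replicate 1.

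Fnip1 and Fnip2 encode the interchangeable partners of folliculin. Fnip1 had 36.3 and 39.5 CPM in the control pair against 27.2 and 36.0 CPM after deletion, a log2 fold change of -0.26 ± 0.18 (interval -0.71 to 0.19, adjusted p = 0.443). The control values were above the deletion values, the lowest being that of deletion replicate 1. Fnip2 had 31.2 and 22.7 CPM in the control pair against 27.1 and 26.7 CPM after deletion, with equal group means of 26.9 CPM and an interval of -0.46 to 0.46. The last 500 bases of Fnip2 shared 50-base runs with 12 other genes, and an opposite-strand gene overlaps its last exon, so its level is less certain than that of Fnip1. Fnip2 made up 46.2% and 36.5% of the Fnip1 plus Fnip2 counts in the control pair against 49.9% and 42.6% after deletion, and these ranges overlap.

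Among the MiT/TFE factors, Tfe3 was the most abundant and Mitf the least in every library. Tfe3, a broadly expressed factor, had 26.3 and 27.4 CPM in the control pair against 40.1 and 31.4 CPM after deletion. The deletion values were higher without overlap, but the log2 fold change of 0.41 ± 0.17 was not called (interval -0.01 to 0.83, adjusted p = 0.212). Tfe3 lies on chromosome X, and its highest value was in deletion replicate 1, the library with the most Xist. With a covariate for male RNA, the Y-linked level relative to the controls, the log2 fold change was 0.02 (adjusted p = 0.994). The controls were at 96.9% and 103% of their mean Y-linked level. That fit thus mainly extends the difference between the deletion libraries and cannot separate genotype from sex. Without deletion replicate 1 the log2 fold change was 0.22. With library sizes alone it was 0.70 (adjusted p = 0.0451), and these adjusted p-values span the range over all its alternatives. The 428 tested genes on X had a median log2 fold change of 0.07.

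Tfeb, the factor best known as a regulator of lysosome number, had 11.7 and 12.2 CPM in the control pair against 10.7 and 9.47 CPM after deletion. It was lower without overlap by a small margin, and the log2 fold change of -0.25 ± 0.19 was not called (interval -0.72 to 0.22, adjusted p = 0.486). With library sizes alone it was 0.04. Mitf, the melanocyte and mast cell factor of the family, had 3.82 and 4.60 CPM in the control pair against 3.63 and 4.12 CPM after deletion, which overlap (log2 fold change -0.12 ± 0.29, interval -0.82 to 0.58, adjusted p = 0.846). Tfe3 held 62.9% (59.1 to 66.5) and 62.0% (58.1 to 65.7) of the Tfeb, Tfe3 and Mitf counts in the controls. In the deletion libraries it held 73.7% (70.8 to 76.4) and 69.8% (66.7 to 72.9). The counting intervals of the groups do not meet. The intervals cover counting error only, and this share was not tested.

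Of the 8 tested members other than Rragd, edgeR called 0 (0 also at an unadjusted p under 0.05, 0 with DESeq2 and 0 with limma-voom). Over all 14600 genes the same rules called 6.57%, 24.4%, 11.3% and 6.26%. Of the 8, 2 were higher and 3 lower without overlap between groups, beside 28.7% higher, 27.3% lower and so 56% of all genes in either direction. Their log2 fold changes ran from -0.36 to 0.41. Their intervals reached no lower than -1.06 and no higher than 0.83, so changes of the size seen in Rragd lie outside all of them.

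**Figure D2:**
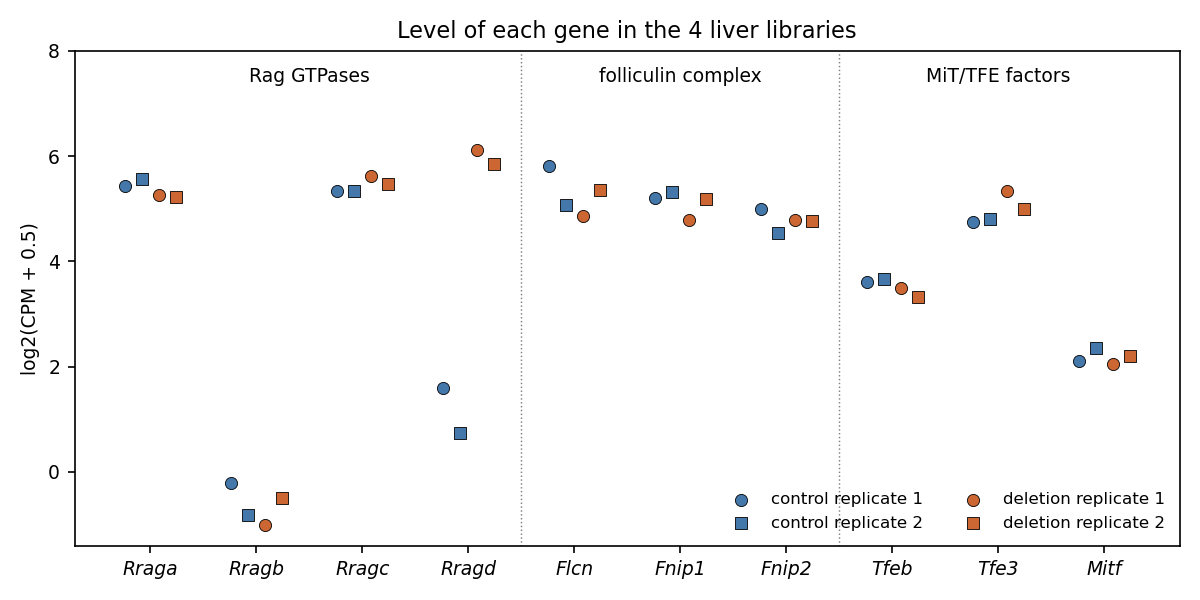
Level of each of the 10 genes, as log2(CPM + 0.5), in the 4 libraries. Circles and squares are replicates 1 and 2, blue the controls and orange the deletion libraries. Rragd shows a wide gap between groups (1.17 and 2.53 against 56.9 and 68.7 CPM), while the points of the other genes lie close together.

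The order of the levels differed between the groups mainly in the place of Rragd. In the controls Rraga (44.7 CPM), Flcn (44.2), Rragc (39.8) and Fnip1 (37.9) came first. The wide range of Flcn covered those of Rraga, Rragc and Fnip1, and the means of Rragc and Fnip1 differed by less than the SD of Fnip1 (2.24 CPM). Fnip2 and Tfe3 followed, both at 26.9 CPM and overlapping, then Tfeb (12), Mitf (4.21), Rragd (1.85) and Rragb (0.219). In the deletion libraries Rragd (62.8 CPM) came first, above Rragc (46.5) without overlap. Below them the ranges of Rraga, Tfe3 and Flcn (37.3, 35.8 and 34.5 CPM) overlapped, as did those of Flcn and Fnip1 (31.6). Fnip2 (26.9) came next, and Tfeb, Mitf and Rragb kept the lowest places.

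In the upstream machinery that controls the Rag GTPases no gene was called by edgeR. This covers the Ragulator anchor and the transporter SLC38A9, the GATOR1, KICSTOR and GATOR2 complexes, the amino acid sensors, mTORC1 with TSC and Rheb, ligases and inhibitors of Rags, and regulators of MiT/TFE factors. Of 47 listed genes 46 were matched and tested, and edgeR called 0, beside 6.57% of all genes. At an unadjusted p under 0.05, 3 were higher and 1 lower, beside 24.4% of all genes in either direction. DESeq2 called 1 higher and 1 lower, beside 11.3%, and limma-voom 0, beside 6.26%. Their median log2 fold change was -0.02, beside -0.004 over all genes.

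By complex, the differences were small. The Ragulator subunits Lamtor2 and Lamtor1, which tether Rags to the lysosome, were at -0.35 ± 0.15 and 0.04 ± 0.16 on the log2 scale (adjusted p = 0.224 and 0.906). Nprl3, a subunit of GATOR1, the activator of RagA and RagB hydrolysis, was at -0.37 ± 0.16 (adjusted p = 0.215). Sec13 and Seh1l, subunits of GATOR2, which opposes GATOR1, were at -0.17 ± 0.17 and -0.13 ± 0.14 (adjusted p = 0.593 and 0.645).

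Among sensors, Sesn3, a sestrin, was at 0.54 ± 0.19 and the leucyl-tRNA synthetase gene Lars at 0.26 ± 0.17 (adjusted p = 0.157 and 0.406). Deptor, an inhibitor subunit of mTOR complexes, had 149 and 137 CPM in the control pair against 85.3 and 97.2 CPM after deletion. Its values were lower without overlap, and the log2 fold change of -0.65 ± 0.15 was not called by edgeR (adjusted p = 0.0614), while DESeq2 gave an adjusted p of 0.0123. Tsc2, a brake on Rheb, was at -0.05 ± 0.14 (adjusted p = 0.869).

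Traf6 and Rnf152 encode ubiquitin ligases, the second of which modifies RagA, and were at 0.22 ± 0.18 and -0.08 ± 0.42 on the log2 scale (adjusted p = 0.508 and 0.936). Sh3bp4, a negative regulator of Rag GTPases, is named here after its values were seen. It had 3.15 and 1.79 CPM in the control pair against 7.2 and 7 CPM after deletion, and edgeR did not call its log2 fold change of 1.52 ± 0.34 (adjusted p = 0.0574; 0.000171 to 0.55 over the alternatives). Gsk3b, a kinase that acts on TFEB, and Mcoln1, the lysosomal calcium channel upstream of calcineurin, were at 0.09 ± 0.16 and -0.19 ± 0.15 (adjusted p = 0.791 and 0.484).

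Of 30 lysosomal target genes of MiT/TFE factors, 2 were called higher and 1 lower, beside 4.41% called higher and 2.16% called lower over all genes. More of them lay higher in the deletion libraries than lower. The values of 16 were higher and of 5 lower without overlap between groups, beside 28.7% and 27.3% of all genes, and the median log2 fold change was 0.19. At an unadjusted p under 0.05, 8 were higher and 2 lower, beside 14% and 10.5% of all genes. DESeq2 called 5 higher, beside 6.8%, and 1 lower, beside 654 of the 14600 genes. Library-size scaling called 8 higher, beside 10.7%, and 0 lower, beside 202 of the 14600 genes. That scaling moved the median of all genes by 0.291 on the log2 scale. Galns, a lysosomal sulfatase, rose from 9.87 and 9.27 CPM to 24.9 and 29.7 CPM (log2 fold change 1.51 ± 0.17, edgeR adjusted p = 0.00932). The cathepsin gene Ctsf fell from 44 and 41.4 CPM to 27.4 and 24.1 CPM (-0.73 ± 0.15, adjusted p = 0.0451).

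Of 13 other targets, edgeR called 1 higher and 0 lower, beside 4.41% and 2.16% of all genes, and their median log2 fold change was -0.06. At an unadjusted p under 0.05, 2 were higher and 1 lower, beside 14% and 10.5%. DESeq2 called 2 higher, beside 6.8%, and 0 lower. The gene called by edgeR was Gpnmb, a glycoprotein of lysosomes in macrophages and melanocytes. It had 5 and 4 counts in the control pair against 29 and 51 after deletion (log2 fold change 2.82 ± 0.53, edgeR adjusted p = 0.0339). Galns kept its call with any single library left out. Gpnmb missed the threshold when deletion replicate 1 (adjusted p = 0.085) or deletion replicate 2 (0.281) was left out, and with a replicate block (0.083). Ctsf lost its call without control replicate 1 (0.0529), deletion replicate 1 (0.113) or deletion replicate 2 (0.258), under library-size scaling (0.108) and with a replicate block (0.100). Gpnmb also missed the threshold with limma-voom (0.0555), and with the male RNA covariate Galns, Gpnmb and Ctsf all did (adjusted p = 0.127, 0.217 and 0.378). Their log2 fold changes with that covariate were 1.78, 3.57 and -0.95. These values mainly extend the difference between the deletion libraries, so they do not separate genotype from sex. The covariate also leaves fewer residual degrees of freedom than the main fit, and why the calls were lost was not tested.

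**Figure D3:**
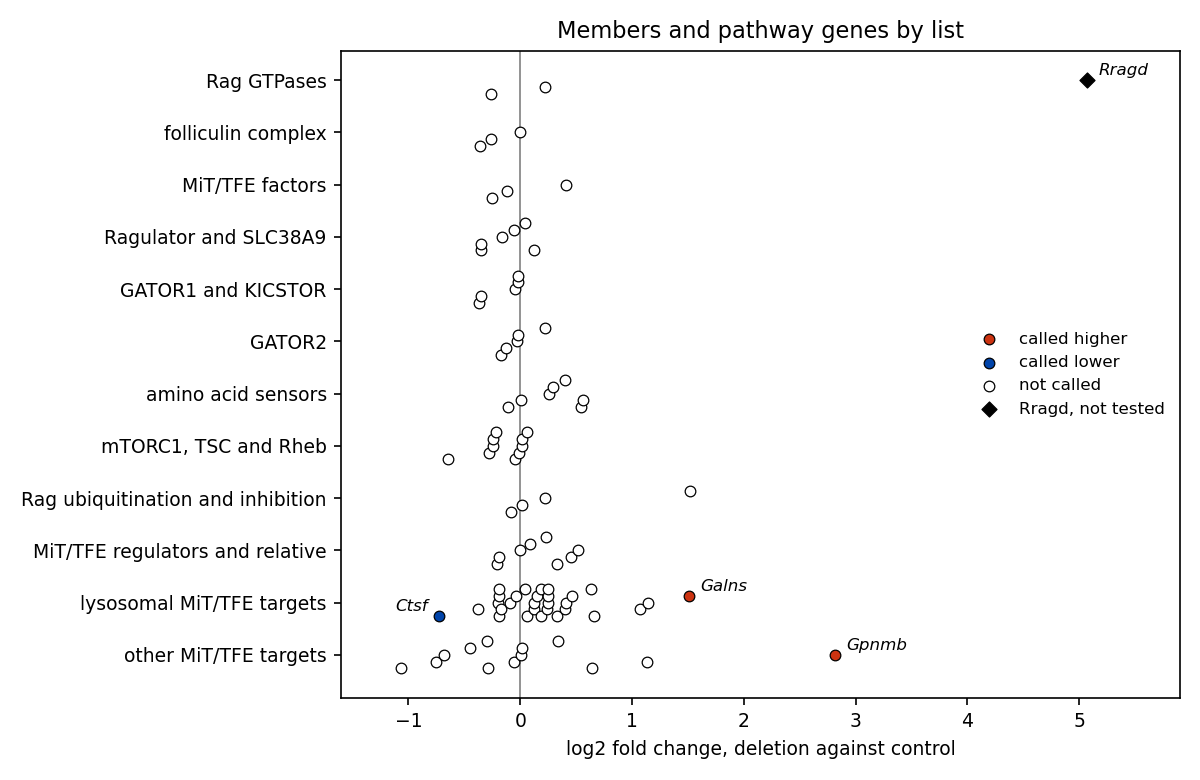
Log2 fold change (deletion against control) of the tested members and the pathway genes reported here, 1 row of points per list, spread vertically for legibility only. Red and blue points were called higher and lower at an adjusted p under 0.05, white points were not called, and the black diamond is Rragd (5.07), which was not tested. Gpnmb (2.82), Galns (1.51) and Ctsf (-0.73) are the called genes shown.

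Some markers of liver cell types differed between the groups. Of 10 macrophage markers 3 were called higher (Trem2, Cx3cr1 and Cd5l), beside 4.41% of all genes. Of the 10, 9 were higher and 0 lower at an unadjusted edgeR p under 0.05, beside 14% and 10.5% of all genes. All 10 had a positive log2 fold change, and 9 were higher without overlap between groups, beside 28.7% of all genes. Their summed level was 380 and 498 CPM in the control pair against 622 to 789 CPM after deletion. Of 7 tested cholangiocyte markers 2 were called higher, Sox9 and Spp1, and 0 lower, beside 4.41% and 2.16% of all genes. At an unadjusted p under 0.05, 3 were higher and 1 lower, beside 14% and 10.5%. The summed level was 127 and 76.3 CPM in the control pair against 1371 and 1970 CPM after deletion, mostly from Spp1. Of the 7, 4 had a positive log2 fold change. Krt19, Krt7 and Epcam were at -2.62 ± 1.01, -1.54 ± 0.68 and -0.77 ± 0.61 and were not called. The biliary keratin gene Krt19 had 39.2 and 3.23 CPM in the control pair against 2.91 and 3.96 CPM after deletion, so control replicate 1, which also had the higher control level of Rragd, stood apart there. Krt7 had 5.55 and 1.79 CPM against 0.714 and 1.8 CPM, and Epcam 6.66 and 1.79 CPM against 2.03 and 2.93 CPM. In Krt19, Krt7 and Epcam alike, control replicate 2 did not lie above both deletion libraries. The hepatocyte list had 3 of 8 called lower, beside 2.16% of all genes, and 7 lower at an unadjusted p under 0.05, beside 10.5%. For this list DESeq2 called 7 lower and 0 higher, and limma-voom called 5, beside 11.3% and 6.26% of all genes in either direction. The summed level of the list was 156044 and 156258 CPM in the control pair against 62383 and 57014 CPM after deletion, mostly from Alb. Alb had 119049 and 114960 CPM in the control pair against 45310 and 42886 CPM after deletion and was not called (edgeR adjusted p = 0.0612). Hnf4a was at -0.21 ± 0.17 on the log2 scale (edgeR adjusted p = 0.52). In the stellate, endothelial and lymphocyte lists edgeR called 0 (DESeq2 0, 1 and 0, and 2, 2 and 0 were lower at an unadjusted p under 0.05). Of the mast cell and melanocyte list 0 of 3 tested were called by edgeR (DESeq2 1, and 1 at an unadjusted p under 0.05), Tyrp1 was at 0 in all libraries and Cpa3 in all but control replicate 1. The part of these cell markers in the values of Rragd, Gpnmb or Tfe3 was not tested.

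The genes with profiles most like that of Rragd were sought over the 4 libraries among 7825 tested genes with a mean CPM within 4-fold of its own. Likeness was the root mean square difference of log2(CPM + 0.5) after centring each gene on its control mean. The closest were Gm11843 (difference 0.30), Gipc2 (0.34), the glutathione transferase gene Gsta1 (0.41), Gm3776 (0.43) and the neurotrophin receptor gene Ntrk2 (0.51), where the median gene was 3.42 away. Gipc2, for example, had 1.54 and 0.206 CPM in the control pair against 30.9 and 40.9 CPM after deletion. Ntrk2 had 1.73 and 1.65 CPM in the control pair against 63.0 and 30.9 CPM after deletion. With 4 libraries in 2 groups, this likeness is mostly the size of the group difference.

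**Figure D4:**
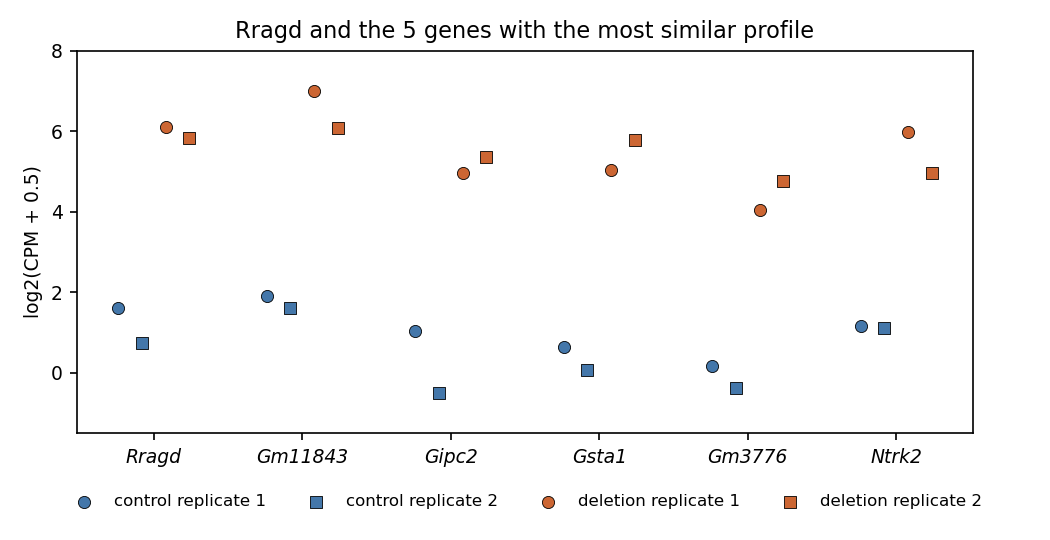
Level, as log2(CPM + 0.5), of Rragd and the 5 genes with the most similar profile in the 4 libraries (circles and squares are replicates 1 and 2, blue controls and orange deletion libraries). In each gene both deletion libraries lie above both controls, as the choice by profile requires.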

How the data were processed

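The submitters' labels describe 3′ mRNA libraries (QuantSeq, oligo-dT primed, single-end) aligned with Bowtie2, and the submitters' processing notes list mm10 and GRCm38, 2 names of 1 assembly. No source used here gives the counter, strand setting or annotation. The authors deposited raw counts for 56953 Ensembl genes in 4 columns that the labels tie to the samples, with 0 other columns. Symbols and positions came from GENCODE M21 (GRCm38), which matched 52029 identifiers.

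Deletion and control libraries were compared in R 4.3.3 by edgeR 4.0.16 with genotype as sole term and TMM scaling (two-sided quasi-likelihood test) on the 14600 genes kept by filterByExpr (minimum count 10, total 15). Calls needed an adjusted p (Benjamini-Hochberg over all tested genes) under 0.05. SE was derived from the log2 fold change and F as the absolute value of the former divided by the root of the latter, and 95% intervals use t with 2 residual and 4.14 prior degrees of freedom. Code was tested on simulated data. Members and lists were chosen with earlier results of these data known, and 1 listed symbol (Kics2) found no match. Named genes are the members, the called genes of each pathway list or else its 2 most abundant, Ube2n, sex-linked genes and the 5 profiles nearest to Rragd. A few listed genes enter the counts but are not reported here by name. Alternatives were other scalings, no filter, DESeq2 1.42.0, limma-voom 3.58.1, a robust fit, a replicate block, a covariate for male RNA (Y-linked CPM relative to the controls), and leaving out each library.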

Additional observations from a re-analysis of the deposited data

How the results depend on the processing

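Rragd was higher in the deletion libraries under all 12 alternatives, with log2 fold changes of 4.69 (share of male RNA as covariate) to 5.35 (library sizes alone) where all libraries were kept, and of 4.63 to 5.74 when 1 library was left out. For its share of the Rragc plus Rragd counts, leaving 1 library out only returns the share of the other library of the group. That is 2.85% or 5.98% in the controls and 56.4% or 58.4% in the deletion group, and is no separate check. Members called other than Rragd were 0 in all alternatives except library sizes alone, where 1 (Tfe3) was called. That scaling moved the median of all genes by 0.291 on the log2 scale and the share of calls that were higher from 67.2% to 88.5%.

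Signs near 0 changed. With library sizes alone Rraga was at 0.03, Fnip1 at 0.04, Fnip2 at 0.29, Tfeb at 0.04 and Mitf at 0.17. With the male RNA covariate Flcn was at 0.10, Fnip1 at 0.19 and Mitf at 0.11. With 1 library left out Flcn ran from -0.68 (without control replicate 2) to 0.05 (without control replicate 1), Fnip2 from -0.21 to 0.24 and Mitf from -0.25 to 0.02 over the same pair of settings, Mitf with its higher value without control replicate 2. Fnip2 was also at 0.01 with no filter, with limma-voom and without deletion replicate 2, and at 0.02 with the replicate block. None of these values was called.

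Over all genes 959 were called, against 1764 under library-size scaling, 2768 with no filter, 1647 with DESeq2, 390 with the replicate block, 65 with the male RNA covariate, and 343 to 2081 with 1 library left out. Of the pathway genes 3 were called higher and 1 lower. The counts were 12 and 0 under library-size scaling, 8 and 5 with no filter, 8 and 2 with DESeq2, 1 and 0 with the replicate block, 0 and 0 with the male RNA covariate, and 1 to 7 and 0 to 3 with 1 library left out. The replicate block and the male RNA covariate leave fewer residual degrees of freedom than the main fit. The cause of these differences was not tested. Replicate numbers are shared between groups without a stated pairing, and deviations of same-numbered libraries correlated at -0.12. Pairing them crosswise, an alternative chosen after seeing the data, called 1366 genes. With 2 libraries a group and 17 to 41 control counts, counting and replicate error limit the precision of the Rragd fold.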
